A study of Mus musculus with 564 samples.

Results

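The genes described here make sterols and fatty acids, control that synthesis or carry sterol within the cell. They were 29 genes fixed by name, and an element was counted as theirs when its centre lay within 10 kb of a RefSeq transcription start of a member in the mm10 build. By this rule 64 of 59190 elements belonged to 28 of the 29 genes, and Scd1 had none. For 26 genes an element was centred within 1 kb of a start, and the nearest 1 of each gene is called its promoter element. The other elements are named by gene and by the distance of their centre from the nearest start in bp, with minus for upstream. Some of these, such as Srebf1 -317 and Acaca -365, lie near another start of the gene and are not in the promoter counts. Of the 64 elements, 11 lay nearer to the coding start of another gene, and 8 were near predicted starts only, so an element near a member need not act on it.

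Acetylation of lysine 27 on histone H3 (H3K27ac), found where promoters and enhancers are active, was measured by ChIP-seq. The cells were bone marrow-derived macrophages (BMDMs) from wild type male C57/BL6 mice aged 6 to 8 weeks. A clinical kinase inhibitor (CKI), 1 of 58 and each at its own single concentration, or DMSO as its vehicle was added 1 h ahead. Cells without stimulus (UT) were compared with cells given, for 30 min, 1 h, 2 h or 4 h, 10 ng/mL of lipopolysaccharide (LPS), the bacterial ligand of TLR4, or of interleukin 4 (IL-4), the cytokine of alternative activation. Of the 564 libraries, 18 were from DMSO, in 9 groups of 2, and 546 from CKIs, mostly with 1 library per compound, stimulus and time. The labels do not tell whether the libraries of a group came from separate cultures. In tests on libraries, p-values therefore measure only the spread between these libraries, which may be technical. Class tests use 1 mean per compound, so their p-values measure the spread between compounds. The CKIs of interest were 5 inhibitors of mTOR or of PI3K and mTOR (Omipalisib, BGT226, Apitolisib, PF04691502 and AZD2014), 2 inhibitors of PI3K (AZD8186 and TG100115) and 2 inhibitors of AKT (GSK2110183 and MK2206), set against the other 49.

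As background, cholesterol is built from acetyl-CoA through the mevalonate pathway, then through squalene and a series of sterol intermediates, and fatty acids are built from the same precursor. Both branches are switched on by the sterol regulatory element-binding proteins, SREBP1 and SREBP2, encoded by Srebf1 and Srebf2. SCAP carries them from the endoplasmic reticulum to the Golgi for cleavage when sterol is low, INSIG1 and INSIG2 hold them back when sterol is high, and signalling through AKT and mTOR complex 1 is known to raise SREBP activity.

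The promoters of 6 genes that the comparisons below turn on are shown. None is printed for Sqle, Fdft1, Fdps, Scd1, Scd2 and Stard4, and the motif shares of members leave these 6 genes out. Each stretch runs from 250 bases before to 50 bases after the start in RefSeq (GRCm38.p6, the mm10 build), 5′ to 3′ on the strand of the gene, and lies inside a member element. Idi1 is at chr13:8885356-8885655 on the plus strand, Hmgcs1 at chr13:119690101-119690400 on the plus strand and Cyp51 at chr5:4104648-4104947 on the minus strand. Hsd17b7 is at chr1:169969156-169969455 on the minus strand, Fasn at chr11:120824498-120824797 on the minus strand and Srebf2 at chr15:82147019-82147318 on the plus strand. Capitals mark TCACNCCA, a form of the sterol regulatory element, and CCAAT, the motif of NF-Y, on either strand.
Idi1: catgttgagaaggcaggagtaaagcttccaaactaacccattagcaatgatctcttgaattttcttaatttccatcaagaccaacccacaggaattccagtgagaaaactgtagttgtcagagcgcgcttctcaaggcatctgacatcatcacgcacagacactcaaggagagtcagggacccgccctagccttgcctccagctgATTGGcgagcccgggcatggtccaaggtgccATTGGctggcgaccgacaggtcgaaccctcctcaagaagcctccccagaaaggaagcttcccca
Hmgcs1: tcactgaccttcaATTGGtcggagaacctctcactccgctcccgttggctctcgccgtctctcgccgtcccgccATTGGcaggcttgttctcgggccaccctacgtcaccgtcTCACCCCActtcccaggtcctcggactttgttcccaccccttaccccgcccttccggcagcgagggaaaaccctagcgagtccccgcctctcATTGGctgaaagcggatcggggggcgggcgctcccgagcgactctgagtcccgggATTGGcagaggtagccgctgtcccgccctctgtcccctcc
Cyp51: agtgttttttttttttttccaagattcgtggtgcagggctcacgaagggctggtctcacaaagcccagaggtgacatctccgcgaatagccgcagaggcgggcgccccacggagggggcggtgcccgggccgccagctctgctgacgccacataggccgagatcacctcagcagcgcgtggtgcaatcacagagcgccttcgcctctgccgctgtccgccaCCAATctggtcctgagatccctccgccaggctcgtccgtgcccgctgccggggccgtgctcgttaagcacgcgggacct
Hsd17b7: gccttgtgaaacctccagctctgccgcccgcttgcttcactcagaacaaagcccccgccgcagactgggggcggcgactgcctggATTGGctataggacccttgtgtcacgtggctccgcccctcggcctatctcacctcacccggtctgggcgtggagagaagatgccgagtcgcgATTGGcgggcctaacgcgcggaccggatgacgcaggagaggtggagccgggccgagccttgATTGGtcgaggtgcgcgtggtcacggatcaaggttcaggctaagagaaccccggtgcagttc
Fasn: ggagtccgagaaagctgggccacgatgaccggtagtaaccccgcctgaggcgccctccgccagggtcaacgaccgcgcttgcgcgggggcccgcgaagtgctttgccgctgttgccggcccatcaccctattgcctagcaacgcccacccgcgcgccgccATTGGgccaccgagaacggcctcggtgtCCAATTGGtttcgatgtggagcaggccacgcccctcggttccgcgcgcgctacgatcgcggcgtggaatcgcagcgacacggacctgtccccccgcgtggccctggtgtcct
Srebf2: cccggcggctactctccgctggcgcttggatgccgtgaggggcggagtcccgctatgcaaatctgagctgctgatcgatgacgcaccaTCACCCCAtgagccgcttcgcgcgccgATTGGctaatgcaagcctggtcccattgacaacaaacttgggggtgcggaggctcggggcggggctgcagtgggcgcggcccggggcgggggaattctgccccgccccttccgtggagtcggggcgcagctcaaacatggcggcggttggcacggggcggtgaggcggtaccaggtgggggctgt
TCACNCCA occurred in Hmgcs1, 137 bases before the start, and in Srebf2, 162 bases before it, and in none of the other 4. CCAAT occurred in all 6, from 1 copy in Cyp51 and in Srebf2 to 4 in Hmgcs1, and a pair of the copies in Fasn overlap on opposite strands. Over all 32851 promoters of the same length, 4.36% held TCACNCCA and 37.4% held CCAAT. Of 31 such promoters at 23 members, 3 (9.68%) and 21 (67.7%) did. CACGTG, an E-box, stood in 7.15% of all and in 22.6% of member promoters, and GGGCGG, a GC box, in 35.7% and 71%. The motifs were chosen after the sequences were seen, and a match is a description of the letters.

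The cells carried the acetylation of macrophages. All 7 macrophage genes checked (Adgre1, Cd68, Csf1r, Itgam, Lyz2, Mrc1 and Spi1) had an element in the top 10% of UT values, from 282 at Mrc1 to 2082 at Spi1. Of the markers of other cells given here, Alb, Cd3e, Col1a2 and Epcam had no element, Col1a1, Mpo and Siglech reached at most 7.5, and elements near Cdh5 (289.5) and Elane (186.5) were high. DMSO and CKI libraries differed in quality. Strong elements (the top 10%) exceeded weak ones (the bottom 10%) by a factor of 53.0 to 133.7 in DMSO and 3.34 to 67.2 in CKI libraries. A single read was worth 1.14 to 2.54 units in 16 DMSO libraries and had a median worth of 9.44 in Omipalisib, 7.24 in AZD2014, 2.48 in BGT226 and 3.46 in the 49 other CKIs. Small values are therefore coarse, and fold changes, all on log2(value + 5), understate change at weak elements. At rest the member promoters spanned a wide range, from a UT mean of 27 at Scap and 44 at Acaca to 364.5 at Srebf2 and 430.5 at Insig1, at the 43.7 to the 95.6 percentile of all elements.

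Acetylation at Srebf2, Hmgcs1, Idi1, Mvk and Stard4 was higher at 30 min of LPS, and at Fasn, Scd2, Dhcr7 and Mvd it fell at 1 or more times. Scap, the escort of SREBP, rose at all 4 of its elements. Over the LPS course, 14 of 56 tested member elements passed a moderated F-test (limma, adjusted p under 0.01 with a log2 difference over 1 at some time), 8 higher and 6 lower. The same rule called 53.5% of all elements tested and 31.3% of those at coding starts, so the members were not called more often than the rest. At 30 min alone (adjusted p under 0.05), 10 of 26 member promoters were higher and 4 lower, against 27.7% and 24.6% of all elements and 23.5% and 26.5% of those at coding starts. The median log2 difference was 0.14 at 30 min over the member promoters, 0.05 over all elements and -0.04 at coding starts. Later, 3 promoters were higher and 3 lower at 1 h, 4 and 5 at 2 h, and 3 and 4 at 4 h. The shares of all elements were 31.2% and 25.7% at 1 h, 31.1% and 30.2% at 2 h, and 30.9% and 26% at 4 h, and at coding starts 28.8% and 20.3%, 25.2% and 27.9%, and 23.5% and 22.7%. With a pseudocount of 20 in place of 5, which weighs down weak elements, 7 elements passed the F rule.

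Among the regulators, the Srebf2 promoter (chr15:82146046-82149616), printed above in part, read 384 and 345 in the UT libraries, 828 and 862 at 30 min of LPS, 656 and 647 at 1 h, 471 and 487 at 2 h, and 551 and 469 at 4 h. All 8 LPS libraries lay above both UT libraries, and the highest were those at 30 min. The log2 difference was 1.20 at 30 min (SE 0.11, n = 2 per group) and 0.48 at 4 h, with an adjusted p of 1.51e-10 for the limma F-test. Scap, at its curated promoter (chr9:110331216-110334512), read 22 and 32 in UT, 56 and 46 at 30 min, 55 and 82 at 1 h, 104 and 75 at 2 h, and 63 and 41 at 4 h. Every LPS library exceeded both UT libraries, by 1.56 on the log2 scale at 2 h (SE 0.28, limma adjusted p 0.000104).

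The largest change of any member element after LPS stood inside the Scap gene. The element Scap +4960 (chr9:110348333-110349960), in an intron, read 5 and 4 in UT, 53 and 102 at 30 min, 81 and 120 at 1 h, 108 and 137 at 2 h, and 52 and 36 at 4 h. The 8 LPS libraries were all far above UT, with log2 differences of 3.05, 3.45, 3.74 and 2.35 (SE 0.29, limma adjusted p 2.83e-13). With IL-4 the same element read 2 to 13 and its libraries overlapped UT. Scap -1975 (chr9:110341423-110343000) read 12 and 11 in UT, 20 and 25 at 30 min, 24 and 40 at 1 h and 49 and 50 at 2 h, 1.72 higher on the log2 scale (limma adjusted p 8.85e-05), and at 4 h, with 16 and 10, it overlapped UT. Scap +8288 rose by 1.18 at 2 h. These 3 elements are placed from a predicted start and share 1 locus with the promoter, so they are not separate cases.

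The other regulators moved less. Srebf1, whose product favours fatty acid genes, read 77 and 81 in UT at its promoter (chr11:60209639-60211369), 102 and 76 at 30 min, 48 and 49 at 1 h, 37 and 60 at 2 h, and 86 and 69 at 4 h. At 1 h and 2 h both libraries lay below UT, by -0.65 and -0.68 on the log2 scale (SE 0.25, limma F adjusted p 0.00414, under the fold threshold). At a second annotated start, Srebf1 -317, all LPS libraries (110 to 157) were below UT (207 and 240), with a log2 difference of -0.82 at 2 h. Insig1, which holds back SREBP (chr5:28070236-28072888), read 409 and 452 in UT, 538 and 598 at 30 min, 338 and 416 at 1 h, 429 and 456 at 2 h, and 309 and 331 at 4 h. It stood above UT at 30 min (0.40, SE 0.13) and below at 4 h (-0.42, SE 0.13). Insig2, its homologue (chr1:121327035-121330346), read 278 to 351 after LPS against 362 and 333, and did not pass (largest log2 difference -0.28, limma F adjusted p 0.119).

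Of the 5 mevalonate promoters, 3 were higher and 1 lower at 30 min. Hmgcs1, which makes HMG-CoA (chr13:119689245-119691301), read 260 and 276 in UT, 487 and 469 at 30 min, 378 and 403 at 1 h, 325 and 390 at 2 h, and 313 and 344 at 4 h. All LPS libraries exceeded UT, by 0.82 at 30 min on the log2 scale (SE 0.13, limma adjusted p 1.95e-06). Idi1, the isopentenyl diphosphate isomerase, read 204 and 250 in UT and 328 and 388 at 30 min, and its 6 later libraries read 270 to 300. The log2 difference at 30 min was 0.65 (SE 0.14, limma adjusted p 0.000269). Mvk, the mevalonate kinase, was 0.70 higher at an element shared with Mmab. Mvd, the mevalonate diphosphate decarboxylase, went the other way, from 287 and 234 in UT to 144 and 158 at 4 h (log2 difference -0.76, SE 0.16, limma adjusted p 0.000149).

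In the squalene and sterol branch, 2 of 9 promoters were higher at 30 min and 1 lower. Hsd17b7, a sterol ketoreductase, read 53 and 49 in UT and 117 and 123 at 30 min, 1.16 higher on the log2 scale (SE 0.23, limma F adjusted p 0.000754), and no LPS library fell into the UT range. Dhcr7, which makes cholesterol from its last precursor, read 109 and 112 in UT and 41 and 51 at 2 h (log2 difference -1.19, SE 0.23, limma F adjusted p 0.000247). Stard4, a carrier of sterol between membranes, read 198 and 165 in UT and 274 and 327 at 30 min (0.71, SE 0.16), and overlapped UT at 4 h with 173 and 158.

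Distal elements of the branch fell with different timing. Tm7sf2 -6186 (chr19:6073284-6074789), in an intron of Vps51 upstream of a sterol reductase gene, read 186 and 154 in UT, 48 and 58 at 30 min, 148 and 136 at 1 h, 183 and 159 at 2 h, and 187 and 142 at 4 h. Both 30 min libraries were below UT and the 2 h and 4 h libraries overlapped it (-1.59 at 30 min, SE 0.19, limma F adjusted p 2.77e-09). Msmo1 +7137 (chr8:64725432-64727450), in an intron of the methylsterol monooxygenase gene, read 228 and 204 in UT, 193 and 183 at 30 min, 168 and 158 at 1 h, 79 and 70 at 2 h, and 127 and 81 at 4 h. It lay below UT at all times and lowest at 2 h (-1.48, SE 0.19, limma F adjusted p 3.18e-08).

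Of the 6 fatty acid promoters 1 was higher at 30 min, Elovl5, and 2 were lower, Fasn and Acly. Fasn, the fatty acid synthase (chr11:120822427-120825511), read 133 and 144 in UT, 89 and 99 at 30 min, 112 and 132 at 1 h, 55 and 72 at 2 h, and 95 and 92 at 4 h. Every LPS library was below UT, most at 2 h (-1.08, SE 0.20, limma F adjusted p 0.00019). Scd2, a stearoyl-CoA desaturase, has an element over its start and early exons, Scd2 +1277 (chr19:44293158-44296748), that read 87 and 90 in UT, 25 and 30 at 30 min, 26 and 33 at 1 h, 24 and 32 at 2 h, and 57 and 38 at 4 h. All 8 were below UT, by 1.53 at 30 min (log2 difference -1.53, SE 0.28, limma F adjusted p 2.3e-05).

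The upstream element Scd2 -9466 (chr19:44283396-44285025) read 51 and 41 in UT, 20 and 30 at 30 min, 14 and 19 at 1 h, 18 and 24 at 2 h, and 49 and 36 at 4 h. It was below UT up to 2 h (-1.25 at 1 h, SE 0.32, limma F adjusted p 0.00178) and overlapped it at 4 h. The Elovl5 promoter, of a fatty acid elongase, read 77 and 104 in UT, 188 and 202 at 30 min and 58 to 107 later (1.08 at 30 min, SE 0.22). Acss2 +6531 (chr2:155523743-155525405), in an intron of an acetyl-CoA synthetase gene, was weak, with 8 and 3 in UT, 13 and 6 at 30 min, 22 and 17 at 1 h, 22 and 21 at 2 h, and 16 and 23 at 4 h. From 1 h its libraries lay above UT. Its log2 difference of 1.38 (SE 0.39, limma F adjusted p 0.00545) lost its call under 8 of 16 other settings.

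**Figure D1:**
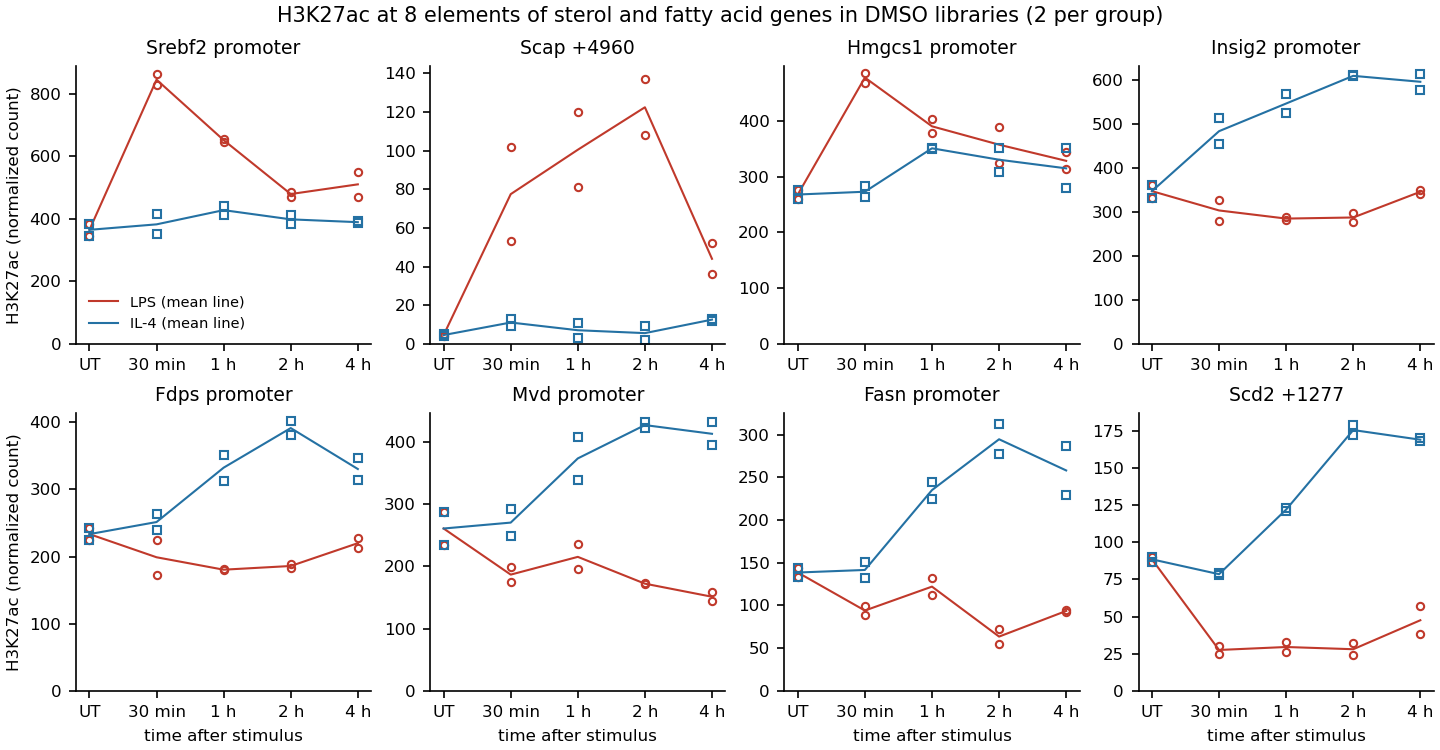
H3K27ac (normalized read count, linear axis from 0) against time after stimulus for 8 member elements in DMSO libraries, with open circles for LPS, open squares for IL-4, 2 libraries per group and lines through group means. Srebf2 and Hmgcs1 peaked at 30 min of LPS, Scap +4960 rose from 5 and 4 to 108 and 137 at 2 h, and Insig2, Fdps, Mvd, Fasn and Scd2 were higher after IL-4 than after LPS from 1 h on.

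After IL-4, acetylation was higher at 1 h, 2 h and 4 h at Lss, Insig2 and Fasn. In the mevalonate branch 4 of 5 promoters were higher at 1 h, 5 at 2 h and 2 at 4 h. Few of these changes reached the fold threshold: 3 of 56 tested member elements passed the limma F rule, all higher, against 24.7% of all elements (13.6% higher, 11% lower) and 7.48% of those at coding starts (4.96% higher, 2.52% lower). At single times (adjusted p under 0.05), 2 of 26 member promoters were higher at 30 min, 14 at 1 h, 14 at 2 h and 10 at 4 h. Elements at coding starts were higher in 14.2%, 27.1%, 31.1% and 24.4% of cases, and all elements in 21.8%, 21.7%, 21.4% and 20.5%. A single member promoter, Insig1 at 30 min, was lower, while lower elements at coding starts made up 10.5%, 7.73%, 9.06% and 8.55%. At 1 h, 39.2% of all elements and 34.9% at coding starts passed in either direction. With a pseudocount of 20, 1 element passed the F rule. At 2 h all 26 estimates were above 0, with a median of 0.38, beside 0.20 at coding starts and -0.03 over all elements.

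All 5 mevalonate promoters were higher at 2 h, by 0.30 to 0.73 on the log2 scale. Fdps, which makes farnesyl diphosphate (chr3:89101150-89104018), read 225 and 242 in UT, 263 and 240 at 30 min, 313 and 352 at 1 h, 402 and 381 at 2 h, and 347 and 314 at 4 h. From 1 h on it was above UT in every library (0.73 at 2 h, SE 0.12, limma F adjusted p 9.84e-07). The Mvd promoter read 287 and 234 in UT, 248 and 292 at 30 min, 407 and 339 at 1 h, 431 and 422 at 2 h, and 431 and 394 at 4 h, and was likewise above UT from 1 h (0.71 at 2 h, SE 0.12, limma F adjusted p 1.35e-07).

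A second element in an intron of Mvd, Mvd +5301 (chr8:122437309-122438933), lies 5181 bp from the start of Cyba. It read 34 and 34 in UT, 44 and 42 at 30 min, 59 and 66 at 1 h, 56 and 70 at 2 h, and 86 and 78 at 4 h. All IL-4 libraries exceeded UT (1.16 at 4 h, SE 0.23, limma F adjusted p 0.000238). In the sterol branch 5 of 9 promoters were higher at 2 h. Lss, which closes the sterol rings, stood at 47 and 64 in UT and 102 and 110 at 1 h (0.89, SE 0.21).

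Among the regulators, Insig2 read 362 and 333 in UT, 455 and 513 at 30 min, 526 and 568 at 1 h, 609 and 611 at 2 h, and 615 and 578 at 4 h. Every IL-4 library was above UT, by 0.80 at 2 h (SE 0.10, limma F adjusted p 1.35e-09). The Srebf1 promoter read 79 and 61 at 30 min, 102 and 100 at 1 h, 111 and 103 at 2 h, and 123 and 111 at 4 h, against 77 and 81. From 1 h its libraries lay above UT, and 4 h passed (0.54, SE 0.19, limma adjusted p 0.0189). Srebf2 read 350 to 442 against 384 and 345 and did not pass at any time (limma F adjusted p 0.373). Scap read 24 to 51 against 22 and 32, and only 1 h passed on its own (0.71, limma adjusted p 0.0458), while the F-test did not (adjusted p 0.186). Insig1 read 327 and 372 at 30 min, below UT (-0.30, SE 0.11), and 354 to 454 later.

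The largest change after IL-4 was near the fatty acid synthase gene. The Fasn promoter read 133 and 144 in UT, 132 and 151 at 30 min, 225 and 245 at 1 h, 312 and 277 at 2 h, and 229 and 287 at 4 h. It overlapped UT at 30 min and stood above it afterwards (1.06 at 2 h, SE 0.14, limma F adjusted p 3.89e-10). The fold threshold of 1 was narrowly missed with quantile normalization (0.99), with a pseudocount of 20 (0.99) and without IL-4 2 h replicate 1 (0.98). Fasn -2682 (chr11:120827019-120828678), in an intron of Ccdc57, read 8 and 2 in UT, 21 and 12 at 30 min, 26 and 33 at 1 h, 32 and 29 at 2 h, and 52 and 44 at 4 h. All were above UT, with log2 differences from 1.14 to 2.47 (SE 0.34, limma F adjusted p 1.83e-07). Scd2 +1277 read 79 and 78 at 30 min, 121 and 123 at 1 h, 179 and 172 at 2 h, and 170 and 168 at 4 h, against 87 and 90. It rose by 0.95 at 2 h (SE 0.16, limma F adjusted p 1.65e-08), under the fold threshold.

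**Figure D2:**
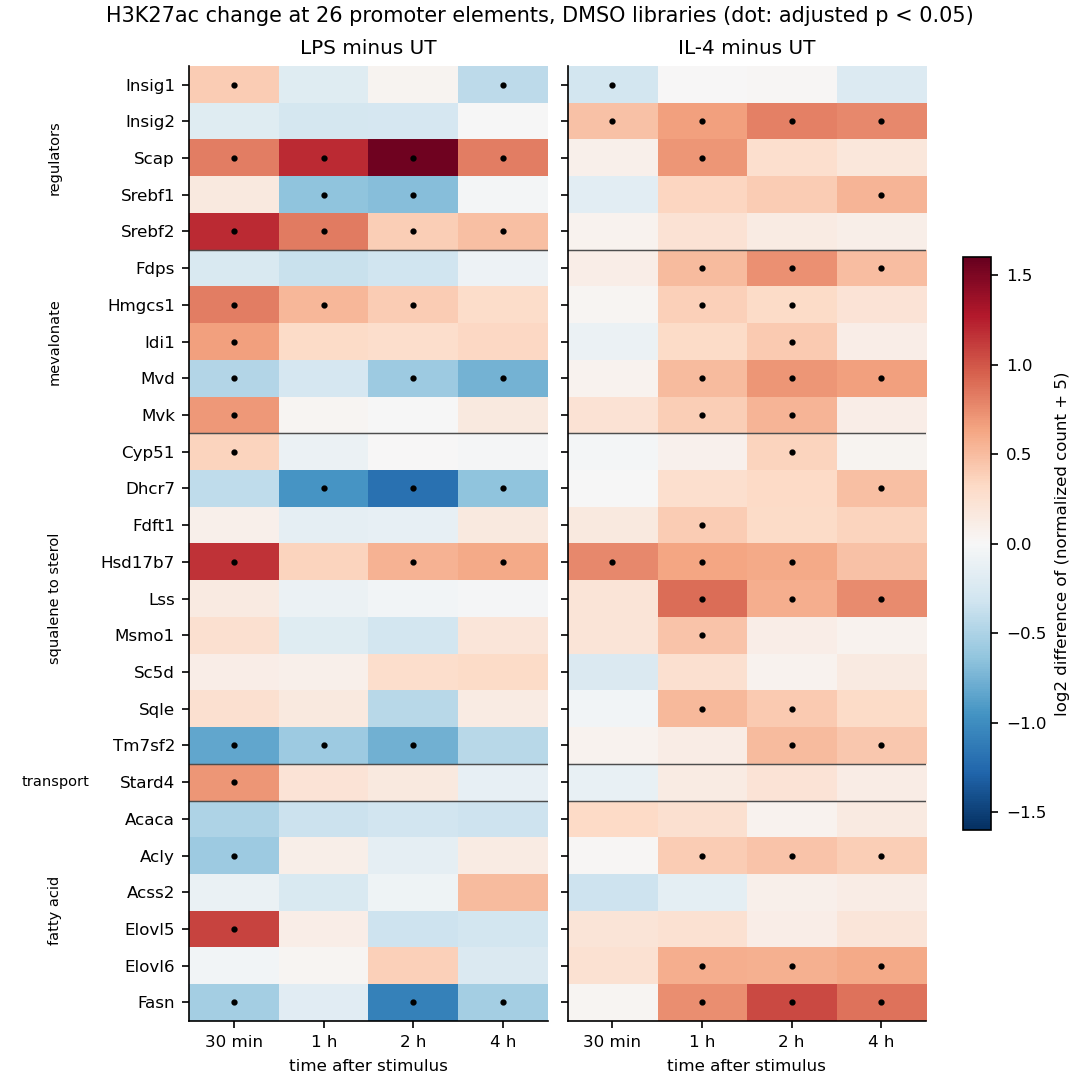
Log2 difference from UT of (normalized count + 5) at the 26 member promoter elements (rows, by role) at 4 times after LPS (left) and IL-4 (right) in DMSO libraries, red for higher and blue for lower, with a dot where the limma adjusted p is under 0.05. After LPS the dots are mixed in sign, and after IL-4 at 1 h and later every dot is red.

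Compared directly at the same times, 20 of 57 tested member elements differed between the stimuli by the F rule, 6 higher with LPS and 14 lower, against 29.2% of all elements in each direction and 12.4% and 21.7% of those at coding starts. The higher promoters were Srebf2 (1.14 at 30 min, SE 0.11) and Scap (1.30 at 2 h, SE 0.29). The lower promoters were Fasn, Dhcr7, Mvd, Tm7sf2, Srebf1, Insig2 and Fdps. Fasn differed most (-2.14 at 2 h, SE 0.17, limma F adjusted p 3.11e-16), with 55 and 72 after LPS and 312 and 277 after IL-4. Mvd differed by -1.42 at 4 h and Insig2 by -1.07 at 2 h. Scd2 +1277 differed by -2.46 at 2 h (SE 0.23), with 24 and 32 after LPS and 179 and 172 after IL-4.

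A second list held 25 genes of the same pathways that are no members. Of their 23 promoter elements, none was higher and 4 were lower after LPS, and none was higher and 1 was lower after IL-4, by the F rule, beside the shares at coding starts above (31.3% and 7.48%). Over all 44 of their tested elements, 1 was higher and 14 were lower after LPS, 5 of the latter near Fads1, and none was higher and 3 were lower after IL-4. The 3 with the smallest p after LPS were Fads1, a fatty acid desaturase (-1.90 at 2 h, limma F adjusted p 9.48e-11), Rnf139, a ubiquitin ligase (-0.60 at 30 min and 0.69 at 2 h, F adjusted p 6.52e-09, under the fold threshold), and Lpin1, a phosphatidate phosphatase (-2.47 at 4 h, F adjusted p 4.22e-07). After IL-4 they were Lpin1 (-1.44 at 30 min, F adjusted p 5.05e-07) and, under the fold threshold, the sterol genes Tmem97 (0.79 at 2 h) and Ebp (0.67 at 4 h). The liver X receptors, which sense oxysterols, and their targets gave 8 promoters. After LPS 2 were lower, Apoe (-2.65 at 2 h, F adjusted p 2.45e-16) and Abcg1 (-1.15 at 30 min, F adjusted p 4.32e-06). After IL-4 the Abca1 promoter was lower (-2.01 at 1 h, F adjusted p 1.97e-13), with no promoter higher. Over all tested elements of this list, 4 of 20 were higher and 4 lower after LPS. After IL-4, 2 of 19 were higher, near Abcg1 (1.24 at 4 h and 1.19 at 2 h), and 3 lower. The F rule called 53.5% of all elements after LPS and 24.7% after IL-4.

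As a class, the 5 inhibitors of mTOR or of PI3K and mTOR went with lower acetylation than other CKIs at some member elements. After LPS this held at Idi1, Stard4, Hsd17b7, Cyp51 and Fdft1, and after IL-4 at Idi1, Fdps, Hmgcs1, Sqle, Tm7sf2 and Scd2. The 5 compounds did not share it evenly. Their medians over the member promoters after LPS were -0.37 in AZD2014, -0.30 in BGT226, -0.28 in Omipalisib, -0.08 in Apitolisib and -0.04 in PF04691502. The class was compared with the 49 other CKIs, with 1 mean per compound over the times and the run of the compound as a term (limma), because DMSO and CKI libraries differ in quality. After LPS 7 of 64 member elements were lower and none higher, against 0.777% and 0.275% of all elements and 1.57% lower at coding starts. They were Stard4, Hsd17b7, Idi1, Cyp51 and Fdft1 at their promoters and Elovl5 -6053 and Srebf1 -317. By branch, 3 of 9 sterol promoters and 1 of 5 mevalonate promoters passed, and none of 6 fatty acid and 5 regulator promoters. Srebf1 -317, near a second annotated start of a regulator gene, is outside this count. Of the 26 member promoters 21 had an estimate below 0, with a median of -0.23, beside -0.05 at coding starts and 0.06 over all elements.

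At the Idi1 promoter (chr13:8884738-8886749) after LPS, Omipalisib libraries read 139, 78, 47 and 64 from 30 min to 4 h, BGT226 227, 157, 147 and 128, and AZD2014 216, 173, 52 and 202. Apitolisib read 179, 172, 248 and 271, and PF04691502 328, 249, 227 and 126. The libraries of the 49 others read 141 to 522 at 30 min (median 262), 113 to 352 at 1 h (253), 135 to 340 at 2 h (219) and 107 to 367 at 4 h (243). Omipalisib was below all of them at every time and AZD2014 at 2 h. BGT226 was inside their range and under their median at each time. A read had a median worth of 9.44 units in Omipalisib and 7.24 in AZD2014, so their lowest values rest on few reads. The class difference was -0.53 (SE 0.11, adjusted p 0.00966). Per compound it was -1.49 for Omipalisib, -0.63 for AZD2014 and -0.60 for BGT226, the 3 lowest of 58, with -0.10 for Apitolisib and 0.02 for PF04691502.

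At the Stard4 promoter Omipalisib read 127, 78, 94 and 64 after LPS, BGT226 161, 136, 114 and 82, AZD2014 128, 156, 136 and 154, Apitolisib 247, 172, 206 and 186, and PF04691502 82, 253, 150 and 145. The 49 others had medians of 273.5, 212, 167 and 167, and lowest values of 94, 113, 86 and 104. Libraries below all of theirs were those of Omipalisib at 1 h and 4 h, of BGT226 at 4 h and of PF04691502 at 30 min. The class difference was -0.57 (SE 0.10, limma adjusted p 0.00198), the smallest p of the members, from -1.18 in Omipalisib to -0.06 in Apitolisib. Stard4 also passed with 30 min alone (-0.89, SE 0.18) and with 4 h alone (-0.66, SE 0.17).

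At the Hsd17b7 promoter (chr1:169968399-169970234) BGT226 read 66, 33, 40 and 67 after LPS, Omipalisib 70, 67, 28 and 36, AZD2014 108, 82, 21 and 58, Apitolisib 62, 131, 52 and 110, and PF04691502 115, 124, 57 and 68. The medians of the 49 others were 109.5, 101.5, 90 and 97, and at 2 h their lowest library was 49, above 3 of the 5 compounds. The values of 28 in Omipalisib and 21 in AZD2014 rest on few reads. The class difference was -0.50 (SE 0.10, limma adjusted p 0.00614), and -1.08 at 2 h alone (SE 0.15, adjusted p 0.000186). Cyp51, the lanosterol demethylase (chr5:4103630-4105612), read 151, 145, 94 and 181 in Omipalisib, 208, 152, 184 and 176 in BGT226, 246, 189, 178 and 240 in AZD2014, 241, 263, 230 and 296 in Apitolisib, and 180, 318, 268 and 116 in PF04691502, beside medians of 306, 294.5, 264 and 283. The first 3 compounds were under the median at each time. It differed by -0.48 (SE 0.11, limma adjusted p 0.0146).

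Fdft1, the squalene synthase (chr14:63177092-63179048), read 70, 45, 75 and 118 in Omipalisib, 95, 109, 86 and 137 in BGT226, 98, 91, 84 and 87 in AZD2014, 74, 63, 159 and 220 in Apitolisib, and 82, 203, 150 and 87 in PF04691502. The medians of the others were 125, 138, 129 and 142, above the first 3 compounds throughout, and the class differed by -0.34 (SE 0.09, limma adjusted p 0.0353). Elovl5 -6053 (chr9:77909781-77912844), upstream of the elongase, read 290, 324, 226 and 181 in Omipalisib, 384, 364, 301 and 342 in BGT226, 393, 222, 220 and 183 in AZD2014, 284, 326, 323 and 390 in Apitolisib, and 229, 350, 330 and 203 in PF04691502. The medians of the others were 434, 381.5, 347 and 364, exceeded only by Apitolisib at 4 h, and the class differed by -0.32 (SE 0.07, limma adjusted p 0.0149). Srebf1 -317 differed by -0.35 (SE 0.09, limma adjusted p 0.0457). The Srebf2 promoter did not pass (-0.26, SE 0.09, limma adjusted p 0.136), and neither did Insig1 (-0.23), Insig2 (-0.13), Scap (0.11) or the Srebf1 promoter (-0.13).

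After IL-4, 6 of 64 member elements were lower in the class and none higher, against 1.25% and 0.221% of all elements and 0.763% lower at coding starts. Of these, 3 were of the 5 mevalonate promoters (Idi1, Fdps and Hmgcs1), 2 of the 9 sterol promoters (Sqle and Tm7sf2), and the sixth was Scd2 +1277. All 14 mevalonate and sterol promoters had an estimate below 0, and 24 of the 26 member promoters did (median -0.18, beside -0.01 at coding starts and -0.08 over all elements). Only Idi1 passed in both stimuli.

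Fdps read 172, 163, 180 and 78 in Omipalisib, 145, 135, 209 and 186 in BGT226, 130, 148, 188 and 227 in AZD2014, and 246, 295, 369 and 358 in Apitolisib. PF04691502 had 2 libraries at 30 min, 153 and 177, and then read 323, 379 and 424. The 49 others had medians of 250, 316.5, 330 and 343 and lowest values of 129, 117, 167 and 218. Only Omipalisib and BGT226 at 4 h were below all of these, and the first 3 compounds were under the median at each time while Apitolisib and PF04691502 reached or passed it at 2 h and 4 h. The class difference was -0.47 (SE 0.09, limma adjusted p 0.00427), with -0.91, -0.85 and -0.65 in the first 3 compounds and 0.03 and -0.02 in the last 2.

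Idi1 after IL-4 read 98, 92, 126 and 116 in Omipalisib, 152, 105, 131 and 150 in BGT226 and 96, 161, 145 and 127 in AZD2014, against medians of 187, 246, 245 and 239. Apitolisib read 178, 161, 209 and 208, and PF04691502 98 and 124 at 30 min, then 192, 263 and 236. All but PF04691502 at 2 h were under the median. The class differed by -0.47 (SE 0.09, limma adjusted p 0.00315). Hmgcs1 read 137, 141, 123 and 134 in AZD2014, under the lowest other library from 1 h on (172, 147 and 168), while Omipalisib read 131, 143, 180 and 168 and BGT226 144, 185, 198 and 247. Apitolisib (213 to 285) and PF04691502 (157 to 285) were higher, and the class differed by -0.35 (SE 0.08, limma adjusted p 0.0165). Sqle, the squalene epoxidase (chr15:59313901-59315997), read 65, 81, 42 and 52 in Omipalisib, 70, 83, 71 and 64 in BGT226 and 68, 148, 29 and 127 in AZD2014 against medians of 121, 151.5, 136 and 148, and differed by -0.41 (SE 0.11, limma adjusted p 0.0434).

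The Tm7sf2 promoter (chr19:6066378-6068777) read 73, 96, 127 and 95 in BGT226 and 74, 51, 114 and 142 in Omipalisib against medians of 112, 172, 180 and 184.5, and the class differed by -0.32 (SE 0.08, limma adjusted p 0.0287). Scd2 +1277 was low mainly in BGT226, with 55, 61, 66 and 95, below the lowest other library at each time (56, 106, 74 and 106). Its class difference was -0.38 (SE 0.09, limma adjusted p 0.0192), with -1.14 in BGT226 and -0.01 in Omipalisib. Readings of the remaining class compounds are not given for Sqle, Tm7sf2 and Scd2 +1277. Each of the 6 calls after IL-4 was lost under 8 to 11 of 17 other settings. The class effects after LPS and after IL-4 were also compared within compounds, and no member element passed (0.0169% of all elements did). The difference between stimuli had its smallest p at Elovl5 -6053 (-0.40, SE 0.10, limma adjusted p 0.0659), where the class effect was -0.32 after LPS and 0.09 after IL-4. It was -0.36 at Stard4 (SE 0.13, limma adjusted p 0.158), -0.06 at Idi1 and 0.18 at Fdps (SE 0.10). A pass in only 1 stimulus thus does not show that the stimuli differ.

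**Figure D3:**
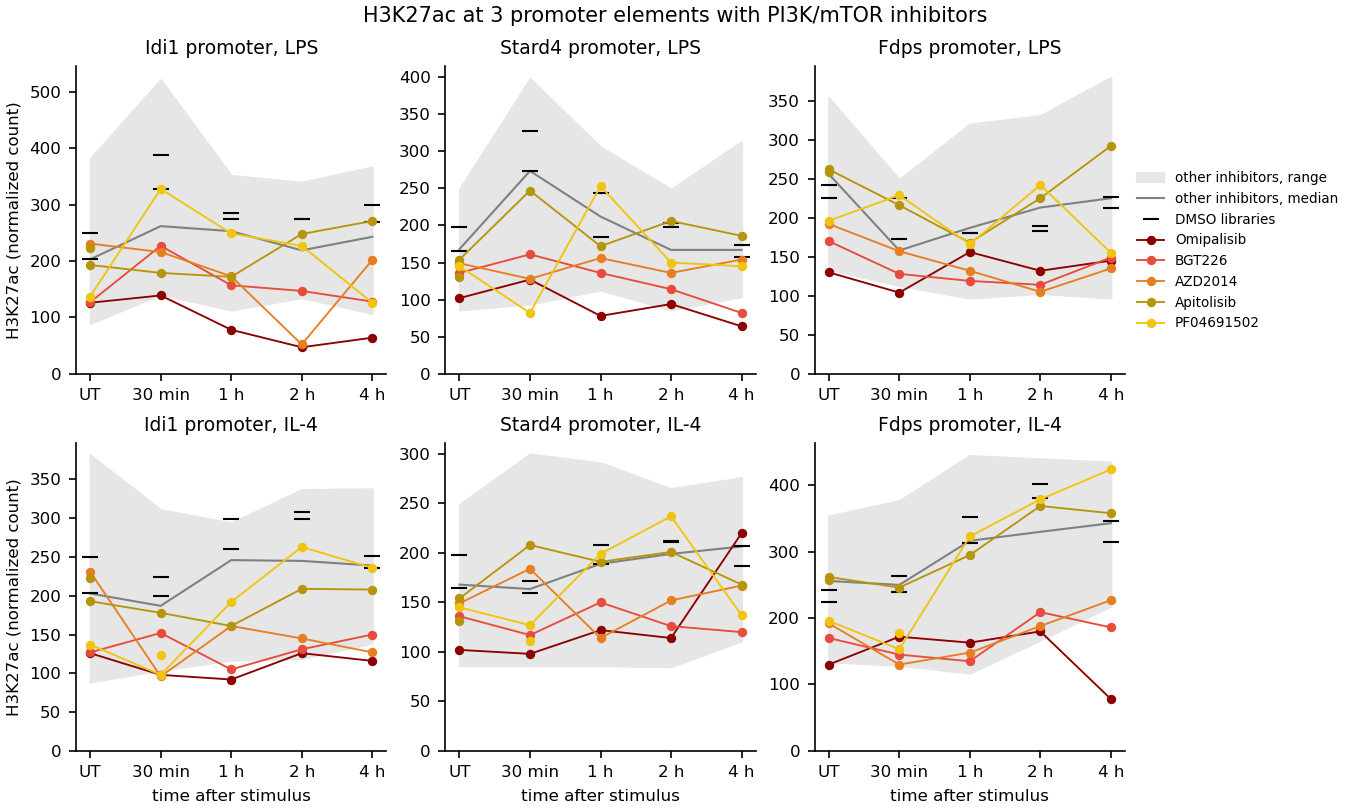
H3K27ac (normalized read count, linear axis from 0) against time at the Idi1, Stard4 and Fdps promoters after LPS (top) and IL-4 (bottom) in single libraries of 5 inhibitors of mTOR or of PI3K and mTOR, with the range and median of the 49 other CKIs in grey and DMSO libraries as dashes. Omipalisib runs along or under the lower edge of the grey range at Idi1 after LPS, with 139, 78, 47 and 64.

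In UT libraries, 1 of 64 member elements was lower in the class, Hsd17b7, and none higher. The shares were 1.75% and 0.34% of all elements and 1.08% and 0.347% at coding starts. The members were thus not called more often than all elements, and the Hsd17b7 call was lost under 4 of 10 other settings. Hsd17b7 read 24 in Omipalisib, 51 in BGT226, 40 in AZD2014, 85 and 92 in Apitolisib and 34 in PF04691502, beside 33 to 145 (median 82) in 63 libraries of the others. Only Omipalisib was below all of these. The difference was -0.79 (SE 0.20, limma adjusted p 0.0201). All 9 sterol promoters had an estimate below 0, among them Sqle (-0.52, SE 0.17) and Cyp51 (-0.48, SE 0.14), which did not pass (adjusted p 0.0956 and 0.0584). The median over the 26 promoters was -0.26, beside -0.03 at coding starts.

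The 5 compounds spanned a wide range. The median over the 26 member promoters, relative to the other CKIs of the run, was -0.37 in AZD2014, -0.30 in BGT226 and -0.28 in Omipalisib after LPS, the 3 lowest of 58 CKIs. Over all promoter elements these compounds had medians of -0.11, -0.07 and 0.07. The next lowest, the p38 inhibitor PH797804, had -0.26 at member promoters and -0.25 at all promoters. After IL-4 the same 3 were lowest again, with -0.45 in BGT226, -0.28 in Omipalisib and -0.19 in AZD2014. The JAK inhibitor BMS911543 had the same median as AZD2014 to 2 decimals (-0.19, with 0.04 over all promoters). Apitolisib (-0.08 and -0.01) and PF04691502 (-0.04 and -0.05) ranked between 11 and 23. The compounds were not matched in dose, and the study used Apitolisib to target JAK1, so these values stand side by side only. In UT, BGT226 (-0.47) and Omipalisib (-0.30) were lowest, BMS911543 (-0.25) came next and AZD2014 was at 0.02.

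The calls rest on these compounds. Without Omipalisib 1 member element passed after LPS and 1 after IL-4, without BGT226 2 and 0, and without AZD2014 4 and 5, while the median over the promoters stayed between -0.30 and -0.19 after LPS and between -0.23 and -0.11 after IL-4 with any compound left out. The class also had a lower ratio of strong to weak elements (median 12.8) than the 49 others (17.9), and Omipalisib had 8.20. Quantile normalization gave 8 calls after LPS and 2 after IL-4, and with each time alone no element passed after IL-4. With the ratio as a further term 13 elements passed after LPS, all lower, and with libraries of a ratio of 8 or more only, 11.

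**Figure D4:**
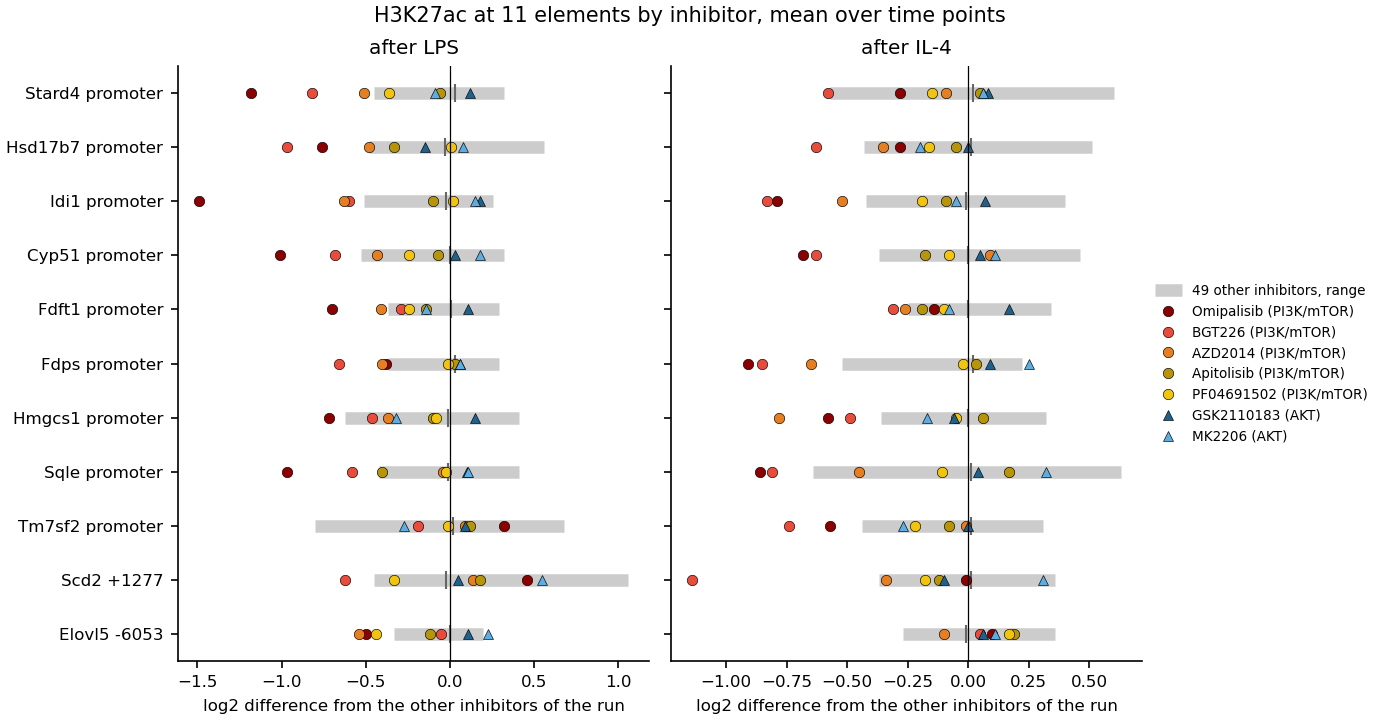
Log2 difference of each compound from the other CKIs of its run (mean over times) at the 11 member elements chosen by smallest p in the class comparison, after LPS (left) and IL-4 (right), with grey bars for the range and ticks for the median of 49 other CKIs. At Idi1 after LPS Omipalisib (-1.49), AZD2014 (-0.63) and BGT226 (-0.60) lie below the grey bar, and both AKT inhibitors (0.18 and 0.15) lie above 0.

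With the 2 AKT inhibitors none of 64 member elements passed the limma test after LPS, IL-4 or in UT, against 0%, 0.00338% and 0% of all elements. At an unadjusted limma p under 0.05 there were 1 after LPS and 1 after IL-4, both lower. In UT there were 4, of which 3 were higher and 1 lower. Such unadjusted counts were not made over all elements. With 2 compounds the intervals were wide. At Idi1 after LPS GSK2110183 read 303, 301, 324 and 247 (2 libraries at 2 h) and 238, and MK2206 read 240, 213 and 281, all inside the range of the other CKIs. The AKT class difference there was 0.13 (95% interval -0.21 to 0.47), at Stard4 0.00 (-0.30 to 0.30) and at Fdps after IL-4 0.14 (-0.13 to 0.41). The median over the 26 promoters was 0.02 after LPS and 0.00 after IL-4.

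A direct contrast of the mTOR and PI3K class with the AKT class, added after the data were seen, called no member element and 0% of all elements after either stimulus. At Idi1 after LPS the difference was -0.66 (95% interval -1.06 to -0.27, limma adjusted p 0.295), at Stard4 -0.58 (-0.93 to -0.22, adjusted p 0.296) and at Fdps after IL-4 -0.61 (-0.93 to -0.29, adjusted p 0.263). The estimate was below 0 at 22 of 26 promoters after LPS and 23 after IL-4, with medians of -0.24 and -0.18. The same count was not made at coding starts, so it does not set the members apart. The 2 PI3K inhibitors without mTOR also gave no member call after LPS, IL-4 or in UT, with 0.0101%, 0.00338% and 0.146% of all elements called. At an unadjusted limma p under 0.05 there were 0, 4 and 9 member elements. After IL-4 3 of these were higher and 1 lower, and in UT 2 were higher and 7 lower.

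**Figure D5:**
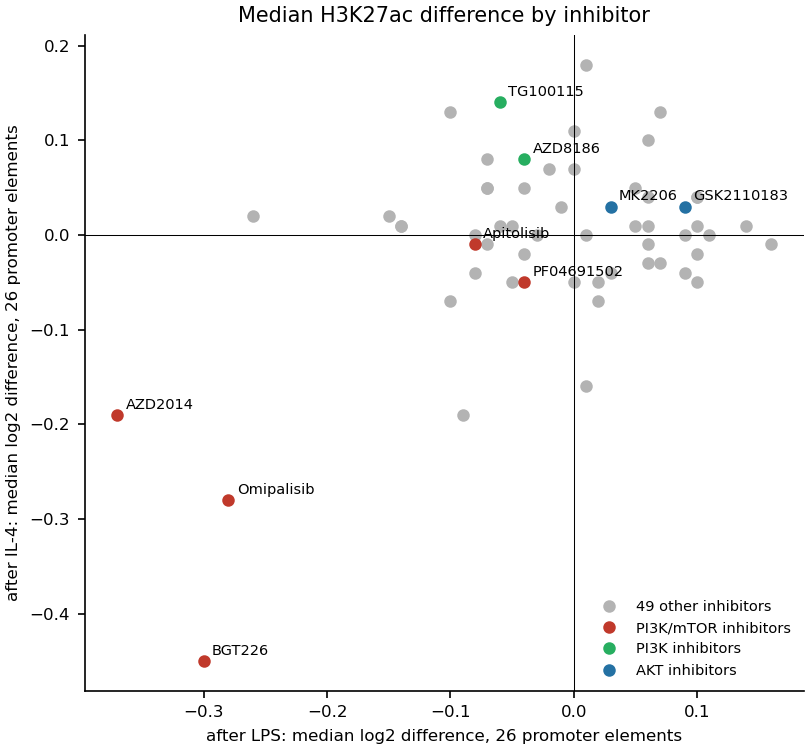
Median log2 difference over the 26 member promoters for each of 58 CKIs relative to the other CKIs of its run, after LPS (horizontal) and IL-4 (vertical), coloured by class. AZD2014, Omipalisib and BGT226 stand apart at the lower left, and Apitolisib, PF04691502 and the PI3K and AKT inhibitors lie among the 49 others.

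Against DMSO directly, the comparison carries the difference in library quality. The coefficient of a compound averages over all times, UT among them. The LPS and IL-4 fits share the UT libraries, so their counts are not independent. The median over all elements was 0.27 to 0.58 above DMSO after LPS and 0.26 to 0.60 after IL-4 in the 9 compounds, and within 0.02 of 0 after quantile normalization. At coding starts the medians after LPS were -0.25 in AZD2014, -0.22 in PF04691502, -0.09 in Omipalisib and -0.01 in BGT226. At member promoters they were -0.37, -0.30, -0.24 and -0.20. After IL-4 they were -0.05, -0.06, 0 and 0.02 at coding starts and -0.26, -0.15, -0.43 and -0.31 at member promoters. Calls at coding starts were not counted in this comparison. With Omipalisib 11 of 26 member promoters were lower and 2 higher after LPS (limma adjusted p under 0.05, log2 difference over 0.5, against 11.4% and 47.5% of all elements), and 13 lower and 2 higher after IL-4 (8.8% and 49.2%). Quantile normalization gave 9 and 12 lower and none higher. With BGT226 6 and 10 were lower (4.82% and 5.35% of all elements), or 4 and 8 after quantile normalization. None and 1 were higher (36.1% and 29.4% of all elements), or none. With AZD2014 10 and 8 were lower (13.2% and 5.27%), or 4 and 7, and 1 and 1 higher (40.2% and 44.8%), or none. With PF04691502 4 and 4 were lower (6.78% and 1.37% of all elements), or none and 1 after quantile normalization. It gave 3 and 1 higher (39.1% and 34.7% of all elements), or none. With Apitolisib none was lower (4.38% and 3.09% of all elements). Higher were 5 and 3 (48.5% and 51.1% of all elements), or none after quantile normalization. Of the AKT inhibitors, MK2206 gave 2 and 1 lower (2.39% and 3.02% of all elements), or none and 1 after quantile normalization. None and 2 were higher (17.9% and 46.4% of all elements), or none. With GSK2110183 none was lower or higher after either stimulus under both scalings (0.458% and 1.06% of all elements lower, 7.95% and 11.1% higher).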

How the data were processed

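H3K27ac was measured by ChIP-seq in 564 BMDM libraries. Per the study's methods, the authors trimmed adapters and single-end reads, aligned these to mm10 with ShortStack (the submitters' processing notes also name Bowtie and SAMtools), counted reads at elements centred on ATAC-seq peaks and scaled each library with a factor from invariant peaks. The deposited values are a score: these normalized read counts, rounded to whole numbers by the authors, so no count model was used. The median element width was 1652 bp. Library totals were 4066894 to 12391409 units. From the spacing of values in 551 libraries, about 1868622 reads (median) lay behind a CKI library and 4282291 behind a DMSO library, which is an estimate.

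Values were transformed to log2(value + 5), elements with a mean under 10 were left out, and limma 3.58.1 (R 4.3.3, trended eBayes, Benjamini-Hochberg over all elements tested) was applied. DMSO courses used the UT libraries as their start, labelled both as time 0 and as 4 h without stimulus, so the LPS and IL-4 courses share these controls. Against DMSO, each compound had 1 coefficient over the times. Class fits used 1 mean per compound, with 6 runs of compounds in the column order of the table as a term, since the labels give no batch, and 49 residual degrees of freedom. Classes follow the designated targets in the study's compound list. The study set each concentration for an intended target, which can differ from the designated one. Single values were named by a rule: regulator promoters, the 8 largest called changes after LPS and up to 6 after IL-4 (3 were called), and the 6 smallest class p-values per stimulus; other values were chosen after they were seen. The members and lists were chosen with earlier results of these data known. On simulated data, the LPS course fit at 2 h recovered 90% of elements raised 2-fold and 74% of those lowered to 0.5-fold. Recovery meant an adjusted p under 0.05 (limma). The F rule was not scored, and the median estimate of the 2-fold gains (0.93) was under its fold threshold. Weak elements were left out and the spread was fixed, so the shares do not hold for weak or more variable elements. The LPS class fit recovered 76% of elements changed to 0.707-fold. The elements changed for the class fit were drawn from those that vary little between the other CKIs, so that share does not hold for more variable elements. Alternatives were other pseudocounts, filters, scalings, windows and terms, a replicate block and left-out libraries or compounds. Fits at single times, of the stimulus difference, against the AKT class and without libraries of a low strong-to-weak ratio were chosen after seeing the data. A further marker of other cells is not reported here.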

Additional observations from a re-analysis of the deposited data

Results flagged for a closer look

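The Fasn promoter was called in opposite directions after the 2 stimuli, lower after LPS and higher after IL-4. The IL-4 call was just over the fold threshold (log2 difference 1.06) and was lost under 3 of 16 alternatives (range 0.98 to 1.14). The difference was tested directly and was largest at 2 h, with a log2 difference of LPS minus IL-4 of -2.14 (SE 0.17, limma F adjusted p 3.11e-16), from 55 and 72 after LPS and 312 and 277 after IL-4.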

How the results depend on the processing

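For the DMSO LPS time course (14 member elements called), a pseudocount of 20 gave 7, the window of 1 kb gave 6, and leaving out a library 12 to 14. For the DMSO IL-4 time course (3 called) these gave 1, 1 and 3 to 4, and for LPS against IL-4 in DMSO (20) leaving out a library gave 19 to 22. For inhibitor against DMSO after LPS, summed over 9 compounds, 205 calls (165 higher, 40 lower) became 41 (17 and 24) with quantile normalization and 32 (8 and 24) against the mean of all inhibitors. For inhibitor against DMSO after IL-4, 215 (171 and 44) became 44 (8 and 36) and 37 (6 and 31). The PI3K/mTOR class after LPS (7) gave 11 with no run term, 13 with the ratio of strong to weak elements as a term, 11 without libraries of a ratio under 8, 0 with all 9 compounds as 1 class, 3 with 2 h and 4 h, and 1, 0, 1 and 2 at the single times. Leaving out a compound gave 1 to 10. The PI3K/mTOR class after IL-4 (6) gave 2 with quantile normalization, 0 with 9 compounds as 1 class, 0 with 2 h and 4 h, 0 at each single time, and 0 to 8 with a compound left out. The PI3K/mTOR class unstimulated (1) gave 2 with the ratio as a term, 0 with quantile normalization and 0 to 3 with a compound left out. The AKT class gave 0 after LPS and after IL-4 under each alternative run. The cause of these shifts was not tested. Of the single named values under all alternatives, 986 kept their side of the threshold, 128 lost and 20 gained the call. Of the 986, 972 kept their direction and 14, none of them called, changed sign, and no called value did. The replicate numbers of the DMSO libraries did not pair them (36 pairs of groups, correlation of deviations from -0.0873 to 0.0664), and a replicate block gave 14, 3 and 20 calls. Depth limits weak elements most and also low readings at promoters, since a read was worth a median of 9.44 units in Omipalisib.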
